A study of Homo sapiens with 12 samples.

Results

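The HOX genes and a set of other developmental regulators known as Polycomb targets were followed after siRNA against EZH2 in SKOV3ip, a variant of the ovarian cancer line SKOV3 (the labels use both names). The set was chosen by name and holds 43 genes: HOX genes of the clusters A, B, C and D, the zinc-finger factors GATA2, GATA3, GATA4 and GATA6, and SOX7, PAX2, PAX6 and MSX1. Of these 43 genes, 34 had a probe named in the probe table, out of 18852 genes with a named probe, and they carried 46 probes. The other 9, HOXA3, HOXA4, HOXA5, HOXA6, HOXA7, HOXA9, HOXA10, HOXA11 and HOXA13, were not analysed here, so HOXA2 alone stands for the A cluster. RNA was measured on 12 Illumina bead arrays in 3 groups of 4: cells transfected with an siRNA against EZH2 (EZH2siRNA), cells transfected with a scrambled siRNA (CTLsiRNA), and cells that received no siRNA (SKOV3ip). The labels state neither the time after transfection nor the origin of the 4 arrays of a group. Every p-value below is therefore set against the spread between arrays, which could be purely technical.

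HOX proteins are homeodomain transcription factors that give cells their position along the body axis. Their genes lie in order within each cluster, with low-numbered genes used towards the head and high-numbered genes towards the tail. In many adult cells these clusters, like other developmental regulator genes, carry methylated histone H3 laid down by Polycomb repressive complex 2 (PRC2), whose main methyltransferase is EZH2, and loss of PRC2 in embryos and stem cells lets such genes be expressed. Adult epithelia of the female reproductive tract use HOX genes of the A cluster and the PAX genes PAX2 and PAX8.

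The EZH2 probe ILMN_1708105 averaged 6.68 ± 0.24 on the log2 scale with EZH2siRNA, 7.56 ± 0.17 with CTLsiRNA and 7.98 ± 0.26 in SKOV3ip cells (SD, n = 4 each). With EZH2siRNA this probe was above background on 4 of 4 arrays, the EZH2 probe ILMN_2364529 on 3 and ILMN_1652913 on 2. Against CTLsiRNA, ILMN_1708105 fell by 0.88 (SE 0.14, adjusted p = 0.00138) and ILMN_2364529 by 0.67 (adjusted p = 0.0178) on the log2 scale, while ILMN_1652913, at −0.53, was not called (adjusted p = 0.0603). With CTLsiRNA against SKOV3ip, ILMN_2364529 was called as well and fell by 0.62 (adjusted p = 0.0196). The log2 fold changes of ILMN_1708105 and ILMN_1652913 there were −0.43 and −0.42 (adjusted p = 0.0886 and 0.128). EZH2 protein and histone methylation were not measured in the files used here. The arrays differed in brightness: the mean raw signal per array was 186 to 284 intensity units with EZH2siRNA, 291 to 386 with CTLsiRNA and 156.7 to 410 in SKOV3ip. Epithelial keratin genes KRT7, KRT8 and KRT18 were above background, 0 of 7 leukocyte, 1 of 6 endothelial and 1 of 10 fibroblast marker probes were bright enough to be tested, and CDH1, the epithelial cadherin, was below background.

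A probe counted as above background on an array when its raw signal passed the array's most frequent signal value by more than the mirrored lower spread allows (p under 0.01). Of the 46 member probes, 20 (43.5%) were above background on 3 or 4 of the 4 arrays with EZH2siRNA, 23 (50%) with CTLsiRNA and 21 (45.7%) in SKOV3ip. Over the 28098 probes that name 1 gene, these shares were 43.7% with EZH2siRNA, 48.5% with CTLsiRNA and 46.8% in SKOV3ip. The members were therefore detected about as often as other named probes in every group. In SKOV3ip, 18 member probes were above background on all 4 arrays, 12 on 1 to 3 arrays and 16 on none. On all 12 arrays together, 16 were always above background and 11 never.

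The HOXB cluster held a long run of detected genes. HOXB2, HOXB3, HOXB4, HOXB5, HOXB6, HOXB7 and HOXB8 each had a probe above background on 4 of 4 SKOV3ip arrays. The tail-most genes of the cluster were not: HOXB9 was above background on 0 EZH2siRNA, 1 CTLsiRNA and 1 SKOV3ip array, and HOXB13, a marker of the prostate and hindgut, on 0, 1 and 0 arrays in the same order. HOXB3 and HOXB6 have a second probe each, and these were weak: HOXB6 ILMN_1667831 lay above background on 2 EZH2siRNA, 3 CTLsiRNA and 2 SKOV3ip arrays. Which transcripts the weak probes match was not examined here.

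Detection in the HOXD cluster was broken up, with each gene read by 1 probe. HOXD1 at the head end, HOXD8 and HOXD9 in the middle and HOXD13, a gene of digit formation, were above background on 4 of 4 SKOV3ip arrays and HOXD11 on 3. HOXD3 and HOXD4 were above background on 2 of 4 SKOV3ip arrays each. HOXD3, HOXD4 and HOXD11 were all below background on SKOV3ip array 4, the dimmest array. Whether a probe below background misses its gene was not tested. HOXD10 was above background on none of the 12 arrays, with levels of 6.07, 6.25, 5.87 and 6.20 with EZH2siRNA, 6.12, 5.99, 6.03 and 6.04 with CTLsiRNA, and 5.96, 6.06, 6.04 and 5.86 in SKOV3ip. In the HOXC cluster, HOXC8 and 1 of the 4 HOXC6 probes were above background on 4 of 4 SKOV3ip arrays and HOXC11 on 3. HOXC4 and HOXC5 were below background on all 12 arrays, and so were the 3 other HOXC6 probes. HOXC6 ILMN_1794492, the detected one, read 6.95, 7.27, 7.33 and 7.39 with EZH2siRNA, 7.29, 7.13, 7.09 and 7.38 with CTLsiRNA, and 7.35, 7.36, 7.38 and 7.14 in SKOV3ip, and the 3 groups overlapped. HOXA2, a patterning gene of the hindbrain and branchial arches, had both of its probes above background on 4 of 4 SKOV3ip arrays.

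Among the members outside the HOX clusters, GATA2, a factor of blood stem cells, was above background on all 12 arrays, at 6.60, 6.30, 6.47 and 6.82 with EZH2siRNA, 6.52, 6.40, 6.57 and 6.42 with CTLsiRNA, and 6.53, 6.43, 6.69 and 6.81 in SKOV3ip. GATA3, GATA4 and GATA6 were above background on at most 1 array of any group. MSX1, a homeodomain repressor of tooth and palate development, was above background on all 12 arrays, and both probes of SOX7, a factor of endothelial development, on at least 3 arrays of each group. PAX2, a kidney and reproductive duct factor with 3 probes, was above background on at most 1 array per probe and group. PAX6, the eye factor, also with 3 probes, was above background only on 2 CTLsiRNA arrays of 1 probe. Detection thus split within families as well as between them. In RNA from a whole culture, fewer expressing cells and less RNA per cell cannot be told apart.

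Promoters are shown for HOXD1 and MSX1, 2 of the members called higher in both siRNA groups than in untransfected cells, and for HOXD10, a gene of the same cluster as HOXD1 that was below background on every array. They are the 250 bases before the gene start (RefSeq, GRCh38.p14, plus strand), in lower case with CpG dinucleotides, the sites of DNA methylation, in capitals. HOXD1 is at chr2:176188418-176188667, MSX1 at chr4:4859415-4859664 and HOXD10 at chr2:176116528-176116777.
HOXD1: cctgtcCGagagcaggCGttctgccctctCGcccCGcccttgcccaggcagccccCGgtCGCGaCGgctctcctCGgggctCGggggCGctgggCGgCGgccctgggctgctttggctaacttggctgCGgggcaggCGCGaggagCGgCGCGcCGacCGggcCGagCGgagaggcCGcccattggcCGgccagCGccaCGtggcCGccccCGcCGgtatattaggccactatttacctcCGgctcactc
MSX1: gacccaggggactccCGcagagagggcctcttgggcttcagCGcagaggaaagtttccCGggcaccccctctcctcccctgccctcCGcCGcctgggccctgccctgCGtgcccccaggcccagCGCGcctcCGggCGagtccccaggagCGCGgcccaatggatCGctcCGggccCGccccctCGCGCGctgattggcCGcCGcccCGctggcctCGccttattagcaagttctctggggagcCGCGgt
HOXD10: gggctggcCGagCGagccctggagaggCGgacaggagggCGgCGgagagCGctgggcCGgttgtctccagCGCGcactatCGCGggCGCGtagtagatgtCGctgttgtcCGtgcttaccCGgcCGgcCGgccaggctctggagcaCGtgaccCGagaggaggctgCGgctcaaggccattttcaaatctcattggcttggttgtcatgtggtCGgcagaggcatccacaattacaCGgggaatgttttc
The HOXD1 promoter has 31 CpG and 74.8% G or C bases, that of MSX1 24 CpG and 74.0%, and that of HOXD10 23 CpG and 64.0%. The ratio of CpG observed to CpG expected from the base composition is 0.89 for HOXD1, 0.72 for MSX1 and 0.92 for the undetected HOXD10. In the promoter table used here, entries were matched for 24 of the 43 genes, with 46 entries, and 31 of the 46 (67.4%) had a ratio above 0.6, against 47.5% of all 35116 promoters. HOXB8 is not among those 24. The entries are not independent: PAX6, HOXA3 and GATA3 have several each, and HOXC4 and HOXC5 share the same window. Genes with no named probe hold 15 of the entries, 11 of them above 0.6.

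Short motifs were searched on both strands of the same 250-base windows. The CCAAT box (CCAAT) occurs once in the HOXD1 and HOXD10 promoters and on 2 occasions in that of MSX1. It is held by 32.0% of all promoters and by 24 of the same 46 member entries. None of these 3 windows holds the TATA box (TATAAA, in 10.7% of all promoters), the nuclear receptor core site used by retinoic acid receptors (AGGTCA, 12.1%), the interferon response core (GAAANNGAA, 6.88%) or the homeodomain core (TAATTA, 4.35%). A match is a string of letters and not a measured binding site.

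EZH2 siRNA against the scrambled siRNA compares cells that were both transfected and differ in the siRNA used. No HOX gene or other member passed the test in either direction. Of the 46 member probes, 25 of 21 genes were above background on at least 4 of the 12 arrays and were tested in limma, and 0 of 25 had an adjusted p under 0.05, against 4.15% of all 17738 tested probes. The lowest adjusted p of a member was 0.168, for HOXB5. In a fit of all 48803 probes without that filter, 0 of the 46 were called, against 1.21% of all probes. In that fit 9 of the 46 had an unadjusted p under 0.05, a larger share than the 10.9% of all probes. At an unadjusted p under 0.05, 6 of the 25 tested probes passed (24%), against 18.6% of all tested probes. The median log2 fold change of the tested members was −0.01 and that of all tested probes −0.02. The members' fold changes ran from −0.30 to 0.41. Their 95% confidence intervals reached from −0.57 at the lowest to 0.76 at the highest.

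The 4 largest fold changes among tested members lay in the HOXB cluster and did not point one way. HOXB8, known in mice from spinal cord patterning and blood progenitors, read 10.77, 10.12, 10.14 and 10.39 with EZH2siRNA, against 9.83, 9.90, 9.95 and 10.11 with CTLsiRNA. The lowest EZH2siRNA array lay just above the highest CTLsiRNA array, and the log2 fold change was 0.41 (SE 0.17, adjusted p = 0.192; exact permutation p = 0.0286, the smallest that 4 against 4 allows). HOXB5, a factor of lung and gut patterning, read 10.47, 10.26, 10.49 and 10.36 with EZH2siRNA, against 10.58, 10.62, 10.75 and 10.76 with CTLsiRNA. The groups did not overlap, with all EZH2siRNA arrays lower, and the log2 fold change was −0.28 (SE 0.11, adjusted p = 0.168). HOXB7 had 10.78, 10.66, 11.18 and 10.90 with EZH2siRNA and 10.53, 10.46, 10.79 and 10.42 with CTLsiRNA, overlapping, for a log2 fold change of 0.33 (adjusted p = 0.204). HOXB2, a hindbrain gene, had 10.05, 10.18, 10.42 and 9.85 with EZH2siRNA and 10.39, 10.21, 10.52 and 10.57 with CTLsiRNA, overlapping, for a log2 fold change of −0.30 (adjusted p = 0.204). HOXB2 and HOXB5 thus had negative values and HOXB7 and HOXB8 positive ones, none past the test, and these 4 signs held under every alternative run. The tested probes of HOXB3, HOXB4 and HOXB6, which lie between HOXB2 and HOXB7, ran from −0.17 to −0.01. For 3 of the 25 tested member probes the EZH2siRNA and CTLsiRNA arrays fell into separate ranges, against 10.8% of all tested probes.

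The third probe without overlap was HOXA2 ILMN_2107068, which read 5.89, 6.19, 6.30 and 6.30 with EZH2siRNA, against 6.34, 6.35, 6.54 and 6.55 with CTLsiRNA. It was above background on 1 of 4 EZH2siRNA arrays and on all 4 CTLsiRNA arrays, and its log2 fold change was −0.28 (adjusted p = 0.197). The other HOXA2 probe, ILMN_1799836, read 6.77, 6.52, 6.82 and 6.68 with EZH2siRNA and 6.59, 6.57, 6.83 and 6.41 with CTLsiRNA, a log2 fold change of 0.10, so the 2 probes of this gene had opposite signs. HOXD9 read 6.97, 6.64, 6.69 and 6.73 with EZH2siRNA, against 6.65, 6.37, 6.53 and 6.49 with CTLsiRNA, overlapping at the edge (log2 fold change 0.25, adjusted p = 0.221). By cluster, log2 fold changes ran from −0.28 to 0.10 for the 2 HOXA2 probes, from −0.30 to 0.41 for 9 HOXB probes, from 0.01 to 0.13 for 3 HOXC probes and from −0.12 to 0.25 for 7 HOXD probes. The 4 tested probes of GATA2, SOX7 and MSX1 ran from −0.20 to 0.07. SOX7 ILMN_1815032 had 7.29, 7.49, 7.39 and 7.70 with EZH2siRNA, 7.55, 7.79, 7.77 and 7.57 with CTLsiRNA, and 7.21, 7.23, 7.29 and 7.55 in SKOV3ip, and passed no test.

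Members below background in untransfected cells were looked at for newly detected probes. The EZH2siRNA arrays were dimmer than the CTLsiRNA arrays. Per array, 29.4% to 34.7% of all probes were above background with EZH2siRNA, 34.2% to 38.4% with CTLsiRNA and 28.8% to 38.8% in SKOV3ip. The part of brightness in detection was not tested. Of the 16 member probes above background on 0 of 4 SKOV3ip arrays, 0 were above background on 3 or 4 EZH2siRNA arrays, and the most any reached was 1. Over all probes at 0 of 4 SKOV3ip arrays, 54 of 27150 (0.199%) were above background on 3 or 4 EZH2siRNA arrays, a share that comes to less than 1 probe in 16. Their log2 fold changes against CTLsiRNA in the fit without a filter ran from −0.33 to 0.16, and the highest upper 95% bound was 0.43. With the background taken per array and a smaller offset of 16, which shrinks weak probes less, they ran from −0.54 to 0.30. The largest value was a decrease, in PAX6 ILMN_1789905, with 5.65, 6.07, 5.92 and 5.94 with EZH2siRNA, against 5.90, 6.52, 6.37 and 6.14 with CTLsiRNA (log2 fold change −0.33, adjusted p = 0.282). That probe was below background on all EZH2siRNA and SKOV3ip arrays. The largest rise among the 16 was in GATA3 ILMN_2406656 (log2 fold change 0.16, adjusted p = 0.732), which was above background on 1 EZH2siRNA array. PAX2 ILMN_1734365 was above background on 1 SKOV3ip array and is not among the 16. It read 6.35, 6.24, 6.32 and 6.34 with EZH2siRNA, against 6.19, 6.23, 6.35 and 6.03 with CTLsiRNA, a log2 fold change of 0.11.

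**Figure D1:**
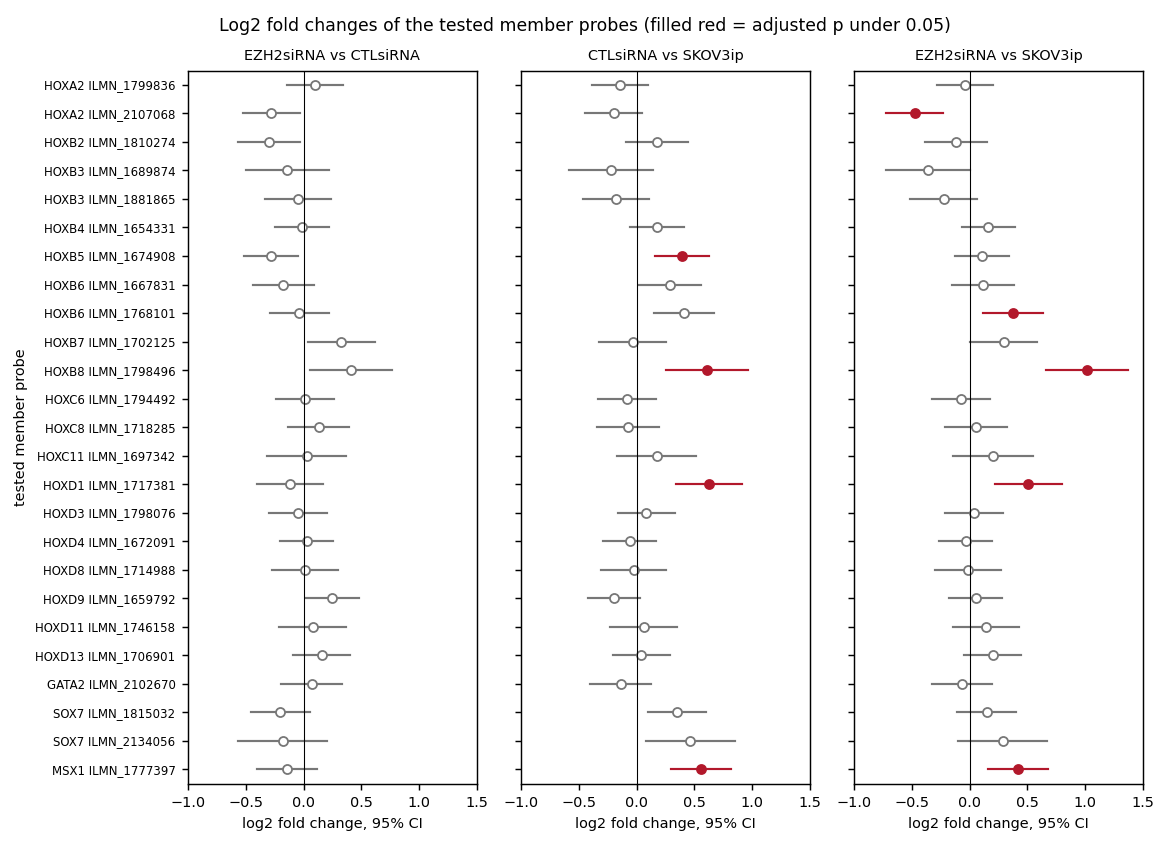
Log2 fold changes (horizontal axis) with 95% confidence intervals for the 25 tested member probes (rows), in 3 panels for EZH2siRNA against CTLsiRNA, CTLsiRNA against SKOV3ip and EZH2siRNA against SKOV3ip; filled red points have an adjusted p under 0.05. No point is red in the first panel, 4 are in the second, all to the right of 0, and 5 are in the third, with HOXB8 farthest right at 1.02.

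The scrambled siRNA against no siRNA sets transfected cells beside untransfected ones. All 3 EZH2 probes were lower with the scrambled siRNA and 1 of the 3 was called, as given above. HOXB5, HOXB8, HOXD1 and MSX1 were called higher, by 1.31-fold to 1.54-fold, and no member was called lower. These 4 probes are 16% of the 25 tested, against 6.35% of all tested probes called in either direction and 3.79% called higher. Without the filter, HOXB5, HOXD1 and MSX1 were called, 3 of 46, against 2.01% of all probes. The members' median log2 fold change was 0.06, and that of all tested probes 0.01. CTLsiRNA and SKOV3ip arrays fell into separate ranges for 7 of the 25 probes, against 13.7% of all tested probes. Among the 7, HOXA2 ILMN_2107068 and HOXD9 were lower with CTLsiRNA and the rest higher. Both had a log2 fold change of −0.20 and were not called (adjusted p = 0.382 and 0.35).

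HOXD1, which in mice shapes pain-sensing neurons, read 8.74, 8.59, 8.79 and 8.59 with CTLsiRNA, against 8.24, 7.87, 8.14 and 7.96 in SKOV3ip. Every CTLsiRNA array was higher, and the log2 fold change was 0.63 (SE 0.14, adjusted p = 0.0079). MSX1 read 9.83, 10.04, 10.02 and 9.98 with CTLsiRNA, against 9.38, 9.17, 9.65 and 9.44 in SKOV3ip. Again every CTLsiRNA array was higher, with a log2 fold change of 0.56 (SE 0.12, adjusted p = 0.00845). HOXB8 read 9.83, 9.90, 9.95 and 10.11 with CTLsiRNA, against 9.82, 9.48, 9.07 and 8.99 in SKOV3ip, a log2 fold change of 0.61 (SE 0.17, adjusted p = 0.0361). HOXB5 read 10.58, 10.62, 10.75 and 10.76 with CTLsiRNA, against 10.48, 10.34, 10.21 and 10.12 in SKOV3ip, a log2 fold change of 0.39 (SE 0.11, adjusted p = 0.0414). For each of the 4 genes the exact permutation p was 0.0286, the smallest possible.

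All 4 calls were lost when arrays were scaled to a common 75th percentile in place of quantile normalisation (log2 fold changes 0.59 to 0.79, adjusted p from 0.114 to 0.34), a scaling under which 310 of all tested probes were called in place of 1126. Apart from that, HOXD1 and MSX1 kept their calls in every alternative run, while those of HOXB8 and HOXB5 held in 14 and 11 of 25. Both were lost with the smaller offset of 16 (adjusted p = 0.0885 for HOXB8 and 0.135 for HOXB5) and without the 3 dimmest arrays (0.0685 and 0.0946), and HOXB8 also without the filter (0.0891). HOXB5 was also lost without background correction. The authors' deposited log2 table gave the same result, as it holds those same values up to rounding. The HOXB8 call was lost without SKOV3ip array 3 or 4 or any 1 CTLsiRNA array (log2 fold changes 0.49 to 0.65, adjusted p from 0.062 to 0.126). The HOXB5 call was lost without SKOV3ip array 2, 3 or 4 or any 1 CTLsiRNA array (0.34 to 0.42, adjusted p from 0.0637 to 0.132).

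Among members that missed the threshold, HOXB6 ILMN_1768101 read 9.61, 9.40, 9.76 and 9.65 with CTLsiRNA, against 9.27, 9.37, 9.18 and 8.98 in SKOV3ip, without overlap (log2 fold change 0.41, adjusted p = 0.055). The 2 SOX7 probes had log2 fold changes of 0.35 and 0.47 (adjusted p = 0.102 and 0.157). HOXB4, beside HOXB5 in the cluster, had 0.17 (adjusted p = 0.438), and HOXB7, beside HOXB8, had −0.04 (adjusted p = 0.935). HOXB2, farther off, had 0.18 (adjusted p = 0.506).

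EZH2 siRNA against no siRNA holds both the transfection and the siRNA against EZH2. HOXB8, HOXD1 and MSX1 rose, HOXB6 rose by 1 of its 2 probes and HOXA2 fell by 1 of its 2 probes. These 5 probes are 20% of the 25 tested, against 16.5% of all tested probes in either direction, and the 4 that rose are 16%, against 8.61% called higher. Without the filter 4 of 46 were called, against 5.14% of all probes. EZH2siRNA and SKOV3ip arrays fell into separate ranges for 3 of the 25, against 16.2% of all tested probes. This comparison shares its EZH2siRNA arrays with the first and its SKOV3ip arrays with the second, so its values are not independent of theirs.

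HOXB8 had the largest difference of any tested member: 10.77, 10.12, 10.14 and 10.39 with EZH2siRNA, against 9.82, 9.48, 9.07 and 8.99 in SKOV3ip. It was 2.02-fold higher (log2 fold change 1.02, SE 0.17, adjusted p = 0.00039), and the 95% confidence interval ran from 0.66 to 1.37. HOXB8 means stood in the order 10.36 ± 0.30 with EZH2siRNA, 9.95 ± 0.12 with CTLsiRNA and 9.34 ± 0.39 in SKOV3ip (SD, n = 4 each), of which the step from CTLsiRNA to EZH2siRNA did not pass the test. HOXD1 read 8.56, 8.25, 8.96 and 8.46 with EZH2siRNA, against 8.24, 7.87, 8.14 and 7.96 in SKOV3ip, a log2 fold change of 0.51 (SE 0.14, adjusted p = 0.0159). MSX1 read 9.79, 9.58, 9.97 and 9.95 with EZH2siRNA, against 9.38, 9.17, 9.65 and 9.44 in SKOV3ip, overlapping by 1 array (log2 fold change 0.42, SE 0.12, adjusted p = 0.0273). HOXB6 ILMN_1768101 read 9.55, 9.36, 9.78 and 9.58 with EZH2siRNA, against 9.27, 9.37, 9.18 and 8.98 in SKOV3ip (log2 fold change 0.37, adjusted p = 0.0452). The weak HOXB6 probe ILMN_1667831 was not called (log2 fold change 0.11, adjusted p = 0.605). The HOXB6 call held in 5 of 25 alternatives and the MSX1 call in 15, including 7 of the 12 that left out 1 array.

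HOXA2 ILMN_2107068 read 5.89, 6.19, 6.30 and 6.30 with EZH2siRNA, of which 1 array was above background, against 6.64, 6.58, 6.62 and 6.75 in SKOV3ip. It fell by 0.48 on the log2 scale (SE 0.12, adjusted p = 0.00832), and the size depends on the background and scaling steps: −0.98 with the offset of 16 and −0.32, not called, under the 75th percentile scaling. HOXA2 ILMN_1799836 read 6.77, 6.52, 6.82 and 6.68 with EZH2siRNA and 6.61, 6.73, 6.78 and 6.84 in SKOV3ip, a log2 fold change of −0.04 (adjusted p = 0.843), so the fall was seen by 1 probe of the gene. All 5 calls were lost under the 75th percentile scaling, which gave HOXB8 0.86 (adjusted p = 0.131) and 486 of all tested probes were called in place of 2933. Without the 3 dimmest arrays, EZH2siRNA arrays 1 and 4 and SKOV3ip array 4, HOXB8 alone was still called (0.68, adjusted p = 0.0352).

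**Figure D2:**
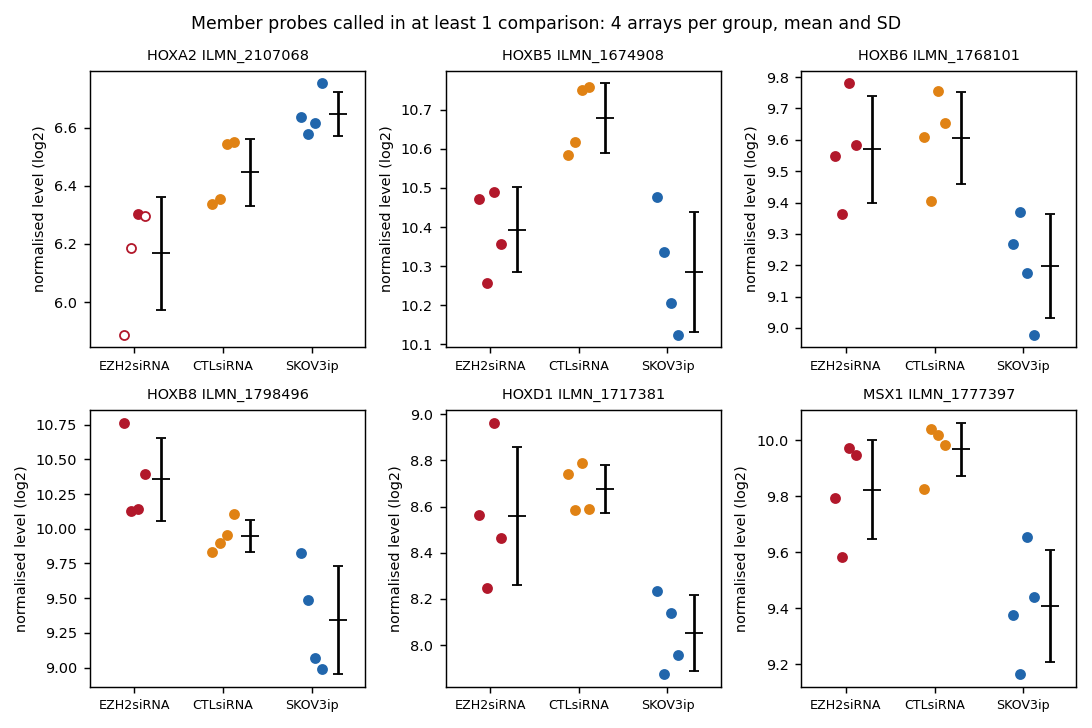
Normalised level (log2) of the member probes called in at least 1 comparison, 1 panel per probe; points are single arrays, 4 each for EZH2siRNA, CTLsiRNA and SKOV3ip from left to right, with the mean and SD. HOXD1 and MSX1 are high with both siRNAs and low in SKOV3ip, HOXB5 has its highest mean with CTLsiRNA, HOXB8 has means of 10.36 with EZH2siRNA, 9.95 with CTLsiRNA and 9.34 in SKOV3ip, and HOXA2 ILMN_2107068 is lowest with EZH2siRNA.

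Brightness differed between arrays, and its relation to the called members is given for the 12 arrays after subtracting group means, as a description. Log2 array brightness correlated with the level of HOXB5 at r = 0.56, of HOXB6 at 0.47, of HOXB8 at 0.35, of HOXD1 at 0.19, of HOXA2 ILMN_2107068 at 0.08 and of MSX1 at −0.17. With brightness as a covariate all 4 members called with CTLsiRNA against SKOV3ip were still called. The covariate and these correlations take 1 slope for all groups, and slopes by group were not tested. In SKOV3ip, HOXB8 ran from 9.82 on the brightest array to 8.99 on the dimmest. With EZH2siRNA, HOXB8 was highest, at 10.77, on the dimmest array of that group. As given above, the HOXB5 and HOXB8 calls were lost without the 3 dimmest arrays. Among the called members, deviations of HOXB5 from its group mean went with those of HOXB8 (r = 0.78) and HOXB6 (r = 0.75), genes of the same cluster measured on the same arrays.

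**Figure D3:**
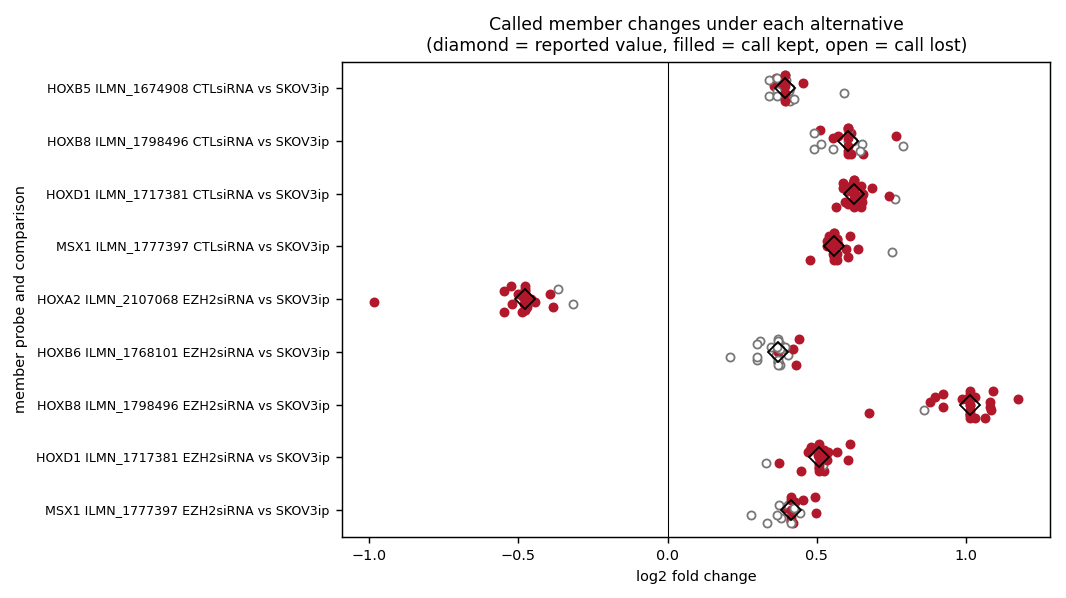
Log2 fold change (horizontal axis) of each called member under the reported settings (diamond) and under each alternative (circles, filled where the call held and open where it was lost); rows are member probes with their comparison. No value crosses 0, HOXD1 and MSX1 with CTLsiRNA against SKOV3ip and HOXB8 with EZH2siRNA against SKOV3ip have 1 open circle each of 25, and HOXB6 has 20.

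The Polycomb complexes and the erasers of the PRC2 mark were themselves measured. Over all tested probes, 4.15% were called with EZH2siRNA against CTLsiRNA, 6.35% with CTLsiRNA against SKOV3ip and 16.5% with EZH2siRNA against SKOV3ip. Of 17 tested probes of PRC2 subunits, 1 rose and 2 fell with EZH2siRNA against CTLsiRNA: both that fell were EZH2, and PHF19, an accessory subunit that recruits the complex, rose by 0.41 on the log2 scale (adjusted p = 0.0337) by 1 of its 3 probes. SUZ12, a core partner of EZH2, differed by 0.11 (adjusted p = 0.815) and EED, the other, by −0.37 (adjusted p = 0.104), on the log2 scale. JARID2, another accessory subunit, rose by 0.73 with CTLsiRNA against SKOV3ip (adjusted p = 0.000329) and by the same 0.73 with EZH2siRNA against SKOV3ip. The other PRC2 calls were falls: 1 probe each of EZH2 and PHF19 (by 0.50, adjusted p = 0.0475) with CTLsiRNA against SKOV3ip, and all 3 EZH2 probes with EZH2siRNA against SKOV3ip. Of 17 tested probes of PRC1, the other Polycomb complex, 0 were called with EZH2siRNA against CTLsiRNA. With CTLsiRNA against SKOV3ip, 2 probes of the PRC1 gene PCGF6 fell, by 0.56 and 0.43. With EZH2siRNA against SKOV3ip 3 rose, PHC2 most with 0.67, and 1 fell (PCGF6, by 0.48). KDM6A, an eraser of the mark, differed by −0.11 on the log2 scale with EZH2siRNA against CTLsiRNA (adjusted p = 0.71), and KDM6B was below background.

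Apart from the Polycomb genes, none of the tested probes in the lists that follow was called with EZH2siRNA against CTLsiRNA. The lists are short, and the shares over all tested probes are those given above. The 15 tested probes of trithorax and MLL complexes, which oppose Polycomb, held 0 calls with CTLsiRNA against SKOV3ip and 2 falls with EZH2siRNA against SKOV3ip (RBBP5 by 0.61 and PSIP1 by 0.54). The 11 tested probes of the HOX partner proteins PBX, MEIS, PKNOX and TGIF held 0 calls in any comparison. Of 10 tested probes of the retinoic acid pathway, which switches on head-end HOX genes in embryos, RARA rose by 0.48 and CYP26B1 by 0.37 with CTLsiRNA against SKOV3ip. With EZH2siRNA against SKOV3ip, RARA rose by 0.55 and RXRB by 0.42, and both probes of ALDH1A3, which makes retinoic acid, fell, by 0.67 and 0.63. Of 13 tested probes of other HOX and Polycomb-bound regulators, 2 probes of PAX8, the reproductive tract lineage factor, rose by 0.66 and 0.75 with CTLsiRNA against SKOV3ip and by 0.53 and 0.56 with EZH2siRNA against SKOV3ip. Their log2 fold changes with EZH2siRNA against CTLsiRNA were −0.14 and −0.18 (adjusted p = 0.642 and 0.545).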

How the data were processed

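Both files used come, per the labels, from Illumina bead arrays, and the submitters' processing notes name BeadStudio 3.2. The main values are the deposited raw intensity table, 1 signal for each of 48803 probes on 12 arrays, with 0 sample columns left unused. The labels name the array Human-6 version 3 for the samples and HumanHT-12 for the series. The deposited log2 table equals the quantile-normalised log2 of the raw table to within 4.99993e-05 and served as an alternative. It repeats the alternative without background correction, and both are counted among the alternatives.

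Raw intensities were corrected with normexp (offset 50), quantile-normalised and put on the log2 scale in limma 3.58.1 (R 4.3.3). The offset shrinks fold changes of weak probes. The files carry no detection p, so background was read from each array's signal mode (p under 0.01), and probes above it on at least 4 of 12 arrays were tested. All 12 arrays entered 1 model of 3 groups (lmFit, eBayes), with Benjamini-Hochberg adjustment over all 17738 tested probes and calls at adjusted p under 0.05. The same fit was run on all probes without the filter. Single members had an exact two-sided permutation test, smallest p 0.0286.

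Gene symbols came from the platform's probe table: 28098 probes had 1 symbol, 13 several and 20692 none. Probes are reported singly. The members, gene lists and alternatives were chosen with earlier results of these data known. Genes named are called members, the member probe of highest SKOV3ip signal in each cluster or family, those whose detection differed by 3 or more arrays between groups, the 2 largest rises and falls with EZH2siRNA against CTLsiRNA, and up to 2 called probes per list and comparison; other names were picked once their values were known. The fitting steps were checked on simulated data. Alternatives varied the scaling, background step, filter, array weights, brightness, threshold, the groups fitted and the replicate number as a block, and left out each array. Figures were drawn with matplotlib 3.10.9.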

Additional observations from a re-analysis of the deposited data

Results flagged for a closer look

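The level of HOXC6 ILMN_1794492 on SKOV3ip array 4 was 7.14, apart from the other 3 SKOV3ip arrays, which lay between 7.35 and 7.38. The gap to the nearest was 0.872 of the whole range of the 4 arrays, above Dixon's critical value for 4 values. It was 1 of 54 sets of 4 arrays looked at, and chance alone picks out about 1 in 20. SKOV3ip array 4 was also the dimmest array, with a mean raw signal of 156.7. The part of brightness in this value was not tested.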

How the results depend on the processing

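With EZH2siRNA against CTLsiRNA, 0 member probes were called under every alternative run, with and without the filter, including each array left out. With CTLsiRNA against SKOV3ip, the 4 called members became 0 under the 75th percentile scaling, 2 with per-array background and offset 16, and 2 at adjusted p under 0.01. Leaving out single arrays gave 2 to 5, with 2 without SKOV3ip array 3 or 4 or CTLsiRNA array 1, 3 or 4. The 3 called without a filter became 0 under the 75th percentile scaling and 1 to 4 with an array left out (1 without CTLsiRNA array 3). With EZH2siRNA against SKOV3ip, the 5 called members became 0 under the 75th percentile scaling, 3 with per-array background and offset 16, 1 without the 3 dimmest arrays, 2 at adjusted p under 0.01, 3 with those groups fitted alone, and 3 to 5 with an array left out (3 without SKOV3ip array 1 or EZH2siRNA array 1, 3 or 4). The 4 called without a filter became 0 under the 75th percentile scaling and 2 to 5 with an array left out (2 without SKOV3ip array 4 or EZH2siRNA array 1 or 3). The causes were not tested. No called fold change turned its sign. The 21 member probes detected in SKOV3ip became 23 at a background p under 0.05.

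Same-numbered arrays deviated together with correlations from −0.38 to 0.46, not all above 0.1, so the numbers were not taken as pairs. With the replicate block, 0 members were called with EZH2siRNA against CTLsiRNA, 3 with CTLsiRNA against SKOV3ip (2 without a filter), where the HOXB5 call was lost (adjusted p = 0.0614), and 4 with EZH2siRNA against SKOV3ip (4 without a filter). Signal over background limits the 21 untested member probes.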

Other observations

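A few regulators outside the 43 genes, chosen here after their values were seen, differed between groups in how many arrays lay above background, and none was called in any comparison. GATA5, a heart and gut GATA factor, was above background on 3 EZH2siRNA, 4 CTLsiRNA and 1 SKOV3ip array, EN2, a midbrain homeobox gene, on 1, 3 and 0, and MSX2, the relative of MSX1, on 1, 4 and 2 in the same order. Their log2 fold changes with EZH2siRNA against CTLsiRNA were 0.09 for GATA5, −0.25 for EN2 and −0.30 for MSX2 (adjusted p = 0.767, 0.271 and 0.221).

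Of the HOX genes outside the 43, HOXB1 was above background on 3 EZH2siRNA, 4 CTLsiRNA and 4 SKOV3ip arrays and HOXD12 on all 12. HOXC12 and the HOXC antisense RNA HOTAIR, as the probe table names it, were below background on all 12.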
